A study of Mus musculus with 4 samples.

Results

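Interleukins and their receptors were followed in white fat from female mice of the inbred laboratory strain C57BL/6, as all array probes whose gene name in the scanner files starts with Il and a digit. That rule, which uses names and no measured value, took in 124 probes for 81 of the 27617 genes on the array: 39 ligands or antagonists, 41 receptors or binding proteins, and Il4i1, an enzyme named for its induction by interleukin 4. The study compared mice fed a high fat diet (HFD, High fat diet 32) with mice kept on the standard low fat diet (LFD, CE2), both from 8 weeks of age for 18 weeks and with no transgene or drug in either group; the model is obesity induced by diet. Total RNA was labelled with Cy3 and read on 4 one-colour arrays, 2 per diet. Each sample is described as fat mixed from 3 mice. The labels name no depot, and they do not say whether the replicates of a diet are separate pools, so every p-value rests on sample-to-sample spread that may be technical. In such bulk tissue, fewer cells of a type and less RNA per cell cannot be told apart.

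The arrays resembled each other closely, with correlations across tested probes of r = 0.989 within LFD and r = 0.992 within HFD. HFD replicate 2 had the fewest probes that Feature Extraction called well above background, 21312 against 26420 to 27937 on the other arrays, and 56 of the 124 interleukin probes against 65 to 81. Before background subtraction, negative control spots had mean signals of 73.9 and 95.6 in LFD and of 106 and 116 in HFD. The part of this background in the changes of dim genes was not tested. All 8 measured adipocyte markers, among them Adipoq, Lep and Plin1, were tested and none differed past the threshold between diets, though 3 had an unadjusted p under 0.05 (limma; log2 changes of 2.18 for Lep, -1.28 for Slc2a4 and -0.32 for Adipoq, each without overlap; summed signals of 979 and 1099 in LFD and of 1012 and 1083 in HFD, each relative to the array's 75th percentile). Such a p was common: 6188 of all 17736 genes tested had an unadjusted p under 0.05 in the same limma fit.

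Interleukins are secreted proteins through which immune and stromal cells signal. Most act through receptors of several chains, of which some bind the ligand, some are shared between families and carry the signal, and some, called decoys, bind without signalling. The IL-1 family signals through Toll-like intracellular domains and the adaptor Myd88, the other families except IL-17 through JAK kinases and STAT factors. In fat, IL-1 from macrophages is known for its part in inflammation, whereas IL-33, IL-4 and IL-13 belong to type 2 immunity, which is linked to eosinophils and alternatively activated macrophages in lean tissue.

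Each probe is a DNA strand of 60 bases. The first 30 bases of those on which the largest changes and the disagreements between probes rest are shown here as read from the scanner files, 5′ to 3′, with positions in the mouse build mm9. Annotation of mm9 was not used here, so exon and UTR positions are not stated. The probe of Il13ra2 lies at chrX:143818033-143818092 on the minus strand. The brighter Il1rn probe lies at chr2:24206125-24206184, and its dimmer probe spans 1021 bases from 24203035 to 24204055, so its ends align to separate parts of the gene. The Il1rl1 probes lie at chr1:40521952-40522011 (probe 1), at chr1:40504769-40504828 (probe 2) and, over 863 bases, at chr1:40498342-40499204 (probe 3).
Il13ra2: tacatcttcttgaaaatcagtgtttgtcct
Il1rn, brighter probe: tttcttgaccattcattttatcacttctaa
Il1rn, dimmer probe: attgctgggtacttacaaggaccaaatatc
Il1rl1, probe 1: tgaccttatttgcttaccagttacaggtaa
Il1rl1, probe 2: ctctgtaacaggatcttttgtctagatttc
Il1rl1, probe 3: cagaagccccaacttgaataagactggata

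Of the 81 genes, 52 were tested, having a probe that stood well above background on both LFD or both HFD arrays. HFD fat was higher than LFD fat in 9 of them: Il13ra2, Il1rn, Il20rb, Il10ra, Il12a, Il1rl1, Il3ra, Il10rb and Il2ra. It was lower in 3, Il17re, Il33 and Il17rd (limma, Benjamini-Hochberg adjusted over all tested probes, threshold 0.05). These are 17.3% and 5.77% of the tested members, against 5.75% and 5.61% of all 17736 genes tested. The median log2 change, HFD minus LFD, was 0.35 over the 52 members and 0.02 over all genes. Both HFD arrays lay above both LFD arrays for 26 members (50%, against 36.2% of all genes) and below them for 9 (17.3%, against 32.7%). By role, 7 of 33 tested receptors were higher and 2 lower, and 2 of 18 tested ligands or antagonists were higher and 1 lower.

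The counts depended on each array: fewer members were called higher, and fewer lower, when any 1 of the 4 arrays was left out. The same held over all genes tested, so the loss of calls was not particular to the members. With 1 array left out the median change was 0.18 to 0.40 over members and -0.003 to 0.047 over all genes. Il13ra2 and Il1rn passed in each of these fits, Il17re without either LFD array, Il10ra without LFD replicate 1 and Il12a without LFD replicate 2. The other 7 called genes lost their call without any 1 of the 4 arrays, and the median over members was 0.18 without LFD replicate 2. Of the 12 called genes, 10 were well above background on all 4 arrays; the exceptions were again Il13ra2 and Il1rn, dim in LFD, which had to differ to be tested. Levels and changes were related: among genes with a mean log2 signal below -3, the median change was 0.13 over 3214 genes and 0.43 over 16 members, although 5.60% of these genes were called lower and 3.11% higher, whereas above 0 it was 0.01 over 8039 genes and 0.05 over 15 members.

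**Figure D1:**
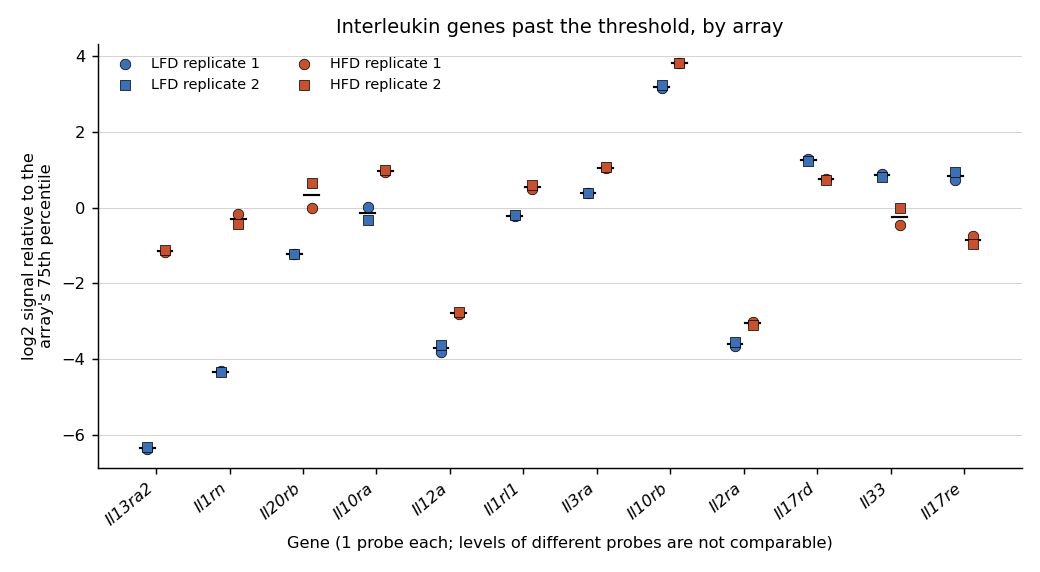
Normalised log2 signal (0 is the 75th percentile of that array; vertical axis) for the 12 interleukin genes past the threshold (horizontal axis, ordered by change); each point is 1 array, blue for LFD and orange for HFD, and short lines are means of 2 arrays. In every one of these 12 genes the HFD points lie on 1 side of the LFD points, and the LFD points of Il13ra2 and Il1rn are not well above background.

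**Figure D2:**
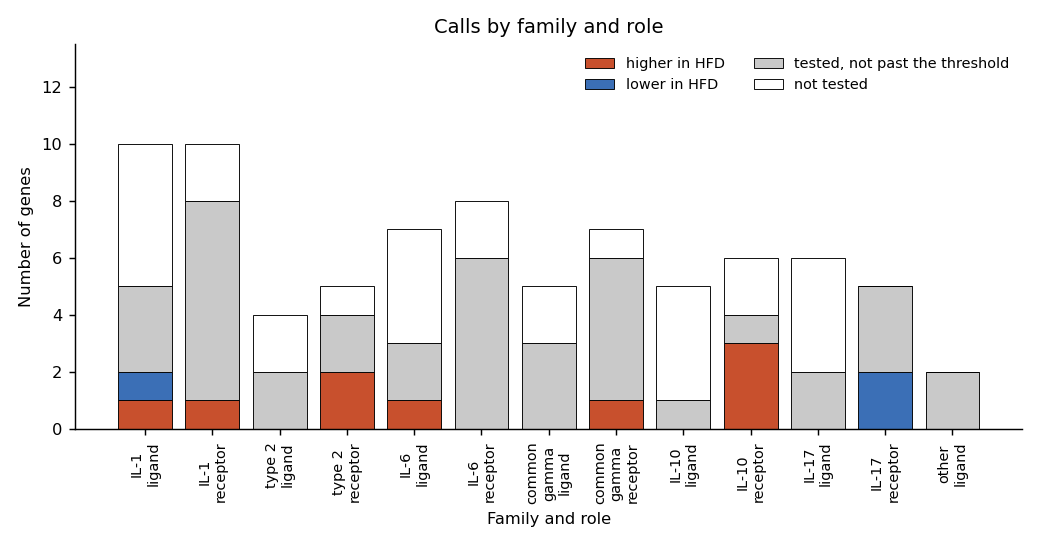
Number of member genes (vertical axis) in each family and role (horizontal axis) that were higher in HFD, lower in HFD, tested without passing the threshold, or not tested; Il4i1, which is neither ligand nor receptor, is left out. IL-10 receptors hold 3 genes that were higher and IL-17 receptors 2 that were lower.

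In the IL-1 family, the antagonist gene Il1rn rose, the alarmin gene Il33 fell and the agonist gene Il1b did not pass the threshold. Il1rn, which encodes a protein that occupies the IL-1 receptor without activating it, had log2 signals of -4.31 and -4.34 in LFD and of -0.16 and -0.44 in HFD. This brighter probe was well above background on neither LFD array, so the difference is given as at least 16.3-fold (log2 change 4.03, SE 0.13, adjusted p = 0.0101). The bound holds only for the background subtraction used, and with normexp background correction the log2 change was 2.41. The dimmer Il1rn probe read -5.94 and -6.63 in LFD and -3.91 and -5.28 in HFD. It was well above background only on HFD replicate 1 and was not tested, so the call rests on the brighter probe alone. Il1b, the agonist released by activated macrophages, read -3.61 and -4.67 in LFD and -2.79 on both HFD arrays. The HFD arrays lay above the LFD arrays but the change did not pass (log2 change 1.35, SE 0.38, adjusted p = 0.0930), while it did with normexp (0.68, adjusted p = 0.0271). LFD replicate 2 was not well above background; without LFD replicate 1 the change also passed, but that dim array was then the only LFD value. The difference between the changes of the antagonist and the agonist was not tested.

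Il33, an alarmin released from stromal and mesothelial cells, fell: its log2 signal was 0.90 and 0.82 in LFD and -0.47 and -0.02 in HFD. It was 2.15-fold lower (log2 change -1.10, SE 0.18, adjusted p = 0.0394), and the diets did not overlap. All 8 mesothelium markers tested, among them Msln, Krt7 and Upk3b, were also lower in HFD. Their summed signals relative to the array's 75th percentile were 35.1 and 36.8 in LFD and 12.1 and 9.67 in HFD. Fibroblast markers went both ways. Of 6, Pdgfra and Dpp4 were lower, and 5 had an unadjusted p under 0.05 in limma, against 6188 of all 17736 genes tested. Among these 5, Col1a1 was higher on both HFD arrays (log2 change 0.61, adjusted p = 0.0508). Dpt, with a change of 0.17, overlapped between diets. The list's median change was -0.54, with sums of 261 and 262 in LFD and of 229 and 233 in HFD. The part of these cells in the change of Il33 was not tested. Il18, a cytokine activated by the same protease as IL-1 beta, read -0.02 and -0.08 in LFD and -0.46 and -0.39 in HFD, and did not pass (log2 change -0.37, adjusted p = 0.0796; with the trend and robust options it passed, adjusted p = 0.0415). The IL-36 gene Il1f8 was the remaining ligand tested, with a change of 0.35 and overlapping diets.

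Among the IL-1 family receptors, the receptor for IL-33 was higher. Il1rl1, also known as ST2, read -0.22 and -0.20 in LFD and 0.50 and 0.59 in HFD at probe 1, a 1.68-fold difference (log2 change 0.75, SE 0.09, adjusted p = 0.0264). This gene makes a membrane receptor and a secreted form; probe 1 and the other probes carry different transcript identifiers in the files. Probe 2 read -5.95 and -6.47 in LFD and -3.64 and -4.97 in HFD, and was well above background only on HFD replicate 1. Probe 3 overlapped between diets, so the rise rests on probe 1 alone.

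Neither the signalling receptor Il1r1 (1.16 and 1.12 in LFD, 1.36 and 1.34 in HFD) nor the decoy Il1r2 (-3.06 and -4.22 in LFD, -2.78 and -2.55 in HFD) passed the threshold. Their log2 changes were 0.21 (95% confidence interval -0.04 to 0.46) and 0.97 (-0.15 to 2.10). The interval of the decoy is wide because its LFD arrays differ by 1.15. Il18bp, a secreted protein that binds and neutralises IL-18, had -0.89 and -1.06 in LFD and -1.12 and -1.06 in HFD, a change of -0.12. The co-receptor Il1rap, the IL-18 receptor chains Il18r1 and Il18rap and the IL-36 receptor Il1rl2 had changes from 0.11 to 0.44 and did not pass either.

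**Figure D3:**
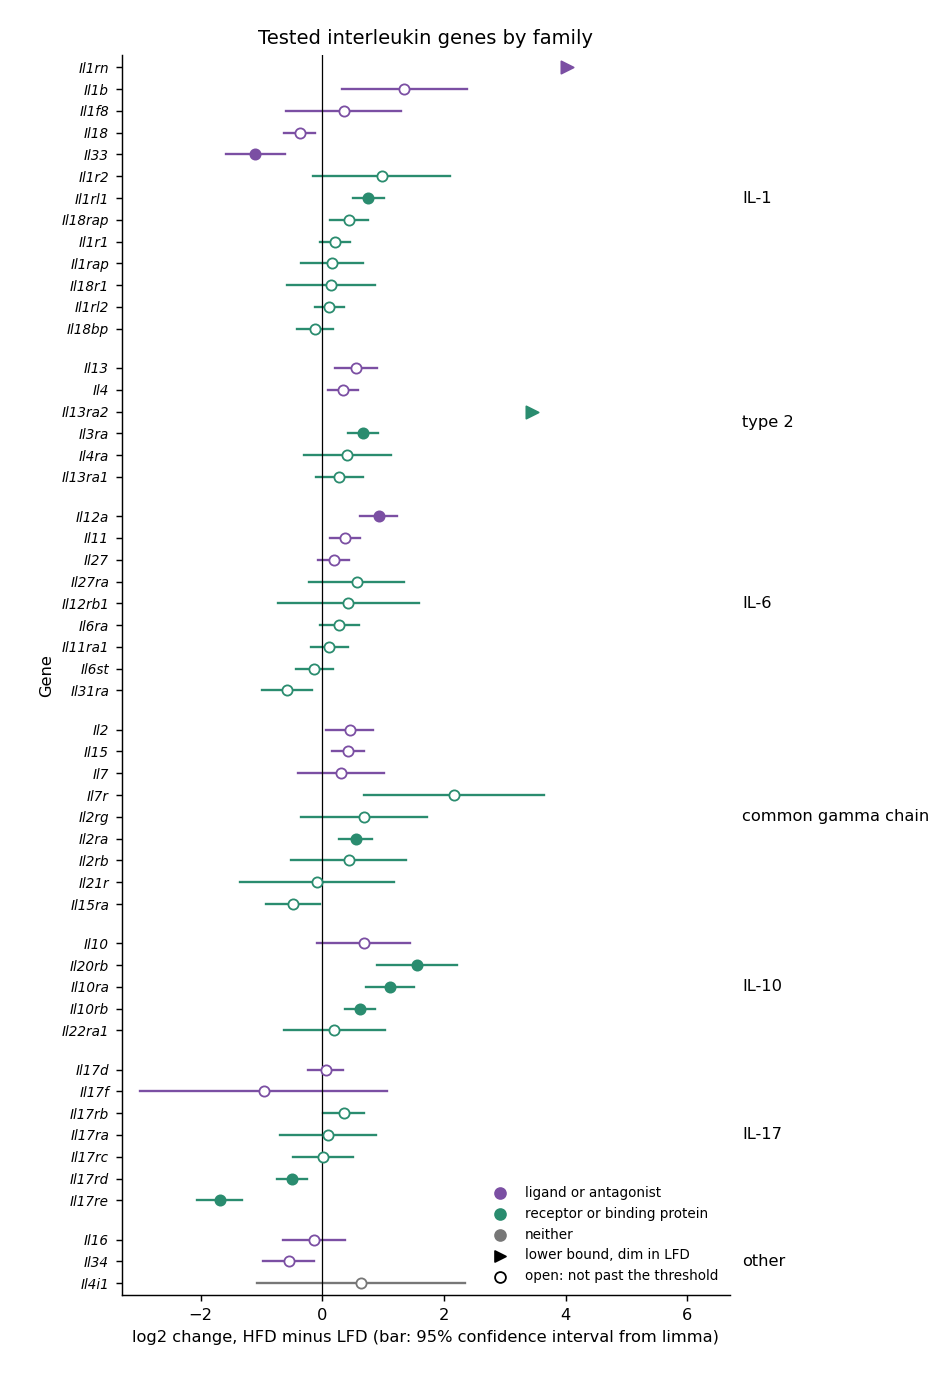
Log2 change, HFD minus LFD (horizontal axis), of the 52 tested interleukin genes (vertical axis) by family; circles are estimates from limma, bars are 95% confidence intervals, filled symbols passed the adjusted threshold, and colour gives the role. Il13ra2 and Il1rn, dim in LFD, are drawn as triangles at their lower bounds of 10.8-fold and 16.3-fold without an interval. The bound of Il1rn equals its estimate. Il17re at -1.69 lies farthest to the left.

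In the type 2 family, 2 of 4 tested receptors, Il13ra2 and Il3ra, were higher in HFD and neither of the 2 tested ligands passed. Il13ra2, which binds IL-13 with high affinity, has a short intracellular tail and is best known as a decoy, was higher in HFD. Its log2 signal was -6.36 and -6.32 in LFD and -1.17 and -1.11 in HFD, without overlap. The probe was well above background on neither LFD array, so the closeness of its LFD values does not measure how replicates agree. The difference was at least 10.8-fold (limma, adjusted p = 0.0040), and this p-value rests in part on those LFD values. This bound too holds only for the background subtraction used, since the log2 change under normexp, 2.38, is a smaller difference; the order of Il13ra2 and Il1rn cannot be read from these values. The call held in 12 of 13 alternative settings and was lost with no filter on dim probes (limma, adjusted p = 0.105), where no gene on the array passed. Those 12 kept the filter, which the gene passed through its HFD arrays alone, so they do not test the call apart from it. Where all 4 arrays had to be well above background, the gene was left out.

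Il13ra1, the chain through which IL-13 signals, gave no such difference. Its brighter probe by mean read -2.14 and -2.43 in LFD and -2.09 and -1.94 in HFD (log2 change 0.27, 95% confidence interval -0.11 to 0.66), and its other probe had a change of -0.20. Il4ra, the chain shared by the IL-4 and IL-13 receptors, read 2.67 and 1.99 in LFD and 2.63 and 2.85 in HFD (log2 change 0.41, -0.30 to 1.12). Il3ra, the ligand-binding chain for IL-3, rose 1.59-fold, from 0.38 and 0.39 in LFD to 1.05 and 1.07 in HFD (log2 change 0.67, SE 0.09, adjusted p = 0.0293).

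Both tested ligands of type 2 immunity had slightly higher signals in HFD without passing. Il4 read -3.38 on both LFD arrays and -3.02 and -3.06 in HFD (log2 change 0.34, adjusted p = 0.0850). Il13 read -3.86 and -3.60 in LFD and -3.16 and -3.21 in HFD (log2 change 0.55, adjusted p = 0.0687), with the last value not well above background. Il5, Il3 and Il5ra were not tested.

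The IL-10 family had 3 of its 4 tested receptors higher in HFD and none lower. Il10ra, the chain specific to IL-10, read 0.02 and -0.31 in LFD and 0.94 and 0.99 in HFD, a 2.16-fold rise (log2 change 1.11, SE 0.15, adjusted p = 0.0284). Il10rb, its partner, which also serves IL-22 and the lambda interferons, read 3.16 and 3.23 in LFD and 3.81 on both HFD arrays, a 1.53-fold rise (log2 change 0.62, SE 0.09, adjusted p = 0.0344). The arrays of each diet lie close together for both chains, and the diets do not overlap. The family count was 1 without LFD replicate 1 and 0 without any other single array.

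Il20rb, a subunit of the receptors for IL-19, IL-20 and IL-24, rose 2.93-fold. It read -1.23 on both LFD arrays, and 0.00 and 0.65 in HFD (log2 change 1.55, SE 0.24, adjusted p = 0.0362). Another Il20rb probe moved the same way by less and did not pass (0.55, adjusted p = 0.0642). Il22ra1, an IL-22 receptor chain of epithelia, overlapped between diets. The ligand Il10 itself read -3.99 and -3.85 in LFD and -2.86 and -3.62 in HFD (log2 change 0.68, adjusted p = 0.175), with HFD replicate 2 not well above background; it passed with normexp (0.51, adjusted p = 0.0285).

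Macrophage markers rose beside these receptors, 7 of 9 measured, with summed signals of 185 and 167 in LFD and of 290 and 300 in HFD relative to the array's 75th percentile. Neutrophil markers were higher in 2 of 4 tested genes, S100a8 and Csf3r, with sums of 0.94 and 0.77 in LFD and of 2.20 and 2.22 in HFD, while Cxcr2, Elane and Ngp were not well above background on both arrays of either diet. Eosinophil markers were higher in 2 of 3, Ear1 and Ccr3 (sums 1.06 and 0.85 in LFD, 4.18 and 3.57 in HFD). Ear1, the brightest of the 3, read -0.41 and -0.62 in LFD and 1.95 and 1.69 in HFD. Prg2 overlapped between diets with a change of -0.26, and Siglecf and Epx were not tested. Markers of type 2 innate lymphoid cells were higher in 2 of 5, Klrg1 and the member Il1rl1 itself, while Gata3 (-0.55), Rora and Icos (both -0.02) did not pass, and the list's median change was -0.02. The part of these cells in the changes of Il10ra, Il10rb, Il1rn, Il13ra2, Il3ra and Il1rl1 was not tested.

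In the group of IL-6 and IL-12 cytokines, 1 of 3 tested ligands was higher. Il12a encodes the p35 subunit of IL-12, which pairs with the product of Il12b. Its log2 signal was -3.80 and -3.61 in LFD and -2.81 and -2.76 in HFD, a 1.90-fold rise (limma, log2 change 0.92, SE 0.11, adjusted p = 0.0251). The probe was dim on all 4 arrays. Signals well above background began at -4.62 and -4.54 in LFD and at -4.38 and -3.18 in HFD. Il12b read -5.06 and -4.74 in LFD and -4.19 and -3.58 in HFD, was well above background only on HFD replicate 1 and was not tested. Il6, the cytokine most often measured in obese fat, was well above background on no array, at -6.33 and -6.26 in LFD and -5.18 and -5.29 in HFD.

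None of the 6 tested receptors of this group passed. At the brightest probe of each, 1 had an unadjusted p under 0.05 in limma, against 6188 of all 17736 genes tested. Il6st, the shared signalling chain gp130, read 3.53 and 3.35 in LFD and 3.29 and 3.33 in HFD (log2 change -0.13, 95% confidence interval -0.43 to 0.17). Il6ra, which binds IL-6, read -1.31 and -1.10 in LFD and -0.96 and -0.88 in HFD at its brighter probe (0.28, -0.04 to 0.60). Its dimmer probe had a larger change and did not pass either (0.46, 0.14 to 0.78; limma, unadjusted p = 0.015, adjusted p = 0.0785). Il31ra was the gene counted above with an unadjusted p under 0.05, lower on both HFD arrays with a change of -0.58 (limma, adjusted p = 0.082). Il11, Il27, Il11ra1, Il12rb1 and Il27ra had changes from 0.11 to 0.56 and were not called.

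For cytokines that share the common gamma chain, Il2ra was the gene past the threshold. It encodes CD25, the high-affinity chain of the IL-2 receptor found on regulatory and activated T cells. The tested probe read -3.65 and -3.55 in LFD and -3.02 and -3.09 in HFD, a 1.46-fold difference (log2 change 0.55, SE 0.10, adjusted p = 0.0457). Of 4 Il2ra probes this was the only one tested, and the others were well above background on no array. The call is marginal: it was lost with quantile normalisation (adjusted p = 0.0662), median scaling (0.0553), normexp (0.0701) and the trend and robust options (0.104), as well as without each array in turn (0.0687 to 0.211). Over all 14 alternatives it was kept in 4, and its adjusted p ran from 0.0258 to 0.211. Il7r, the IL-7 receptor of T cells and innate lymphoid cells, had the third largest estimate of all members but also a wide spread. Its brighter probe read -1.12 and -2.63 in LFD and 0.48 and 0.08 in HFD (log2 change 2.16, SE 0.54, adjusted p = 0.0784), and passed without LFD replicate 1 (2.91, adjusted p = 0.0436) and with normexp (1.78, adjusted p = 0.0122). Its dimmer probe had a smaller and tighter change (-3.39 and -3.38 in LFD, -2.69 and -2.55 in HFD; 0.77, SE 0.10, adjusted p = 0.0294).

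The common chain Il2rg itself read -1.46 and -2.49 in LFD and -1.46 and -1.13 in HFD (log2 change 0.68, 95% confidence interval -0.36 to 1.72). Il2rb and Il21r overlapped between diets as well. Il15ra, which presents IL-15 to neighbouring cells, was lower on both HFD arrays at both of its probes without passing; the brighter probe read 0.39 and 0.61 in LFD and 0.17 and -0.16 in HFD (-0.49, adjusted p = 0.125). The ligand Il15 read -2.20 and -2.29 in LFD and -1.86 and -1.79 in HFD (0.42, adjusted p = 0.067), and passed when only genes well above background on all 4 arrays were tested (adjusted p = 0.0415). Il7 and Il2 had changes of 0.30 and 0.45 and did not pass.

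The IL-17 family was the only one of the 6 with lower genes among its receptors and none higher. Il17re, which pairs with Il17ra to bind IL-17C on epithelial cells, read 0.74 and 0.94 in LFD and -0.74 and -0.96 in HFD. It was 3.22-fold lower (log2 change -1.69, SE 0.14, adjusted p = 0.0164), the largest fall of the 52 genes, and kept its call without either LFD array. The mesothelium markers given beside Il33 moved the same way, and their part was not tested here either. Il17rd, a family member best known as an inhibitor of fibroblast growth factor signalling, was 1.42-fold lower at its brightest probe (1.28 and 1.23 in LFD, 0.77 and 0.73 in HFD; log2 change -0.50, SE 0.09, adjusted p = 0.0467).

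The fall of Il17rd was not shared by its other probes. One had a change of 0.59 (adjusted p = 0.0566) and one of 0.25, and the mean of the 3 tested probes gave 0.11 (adjusted p = 0.484). The probes lie at chr14:27920311-27920370 (brightest), chr14:27913180-27913239 and chr14:27902088-27902147 in mm9, and are shown because they read the gene in opposite directions.
Il17rd, brightest probe: atagcactgtgccatatttttacattggcg
Il17rd, at 27913180: agaagcagtttatacccttccaacatcccc
Il17rd, at 27902088: gaagttatataggttaaggctggcaaacct

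The shared signalling receptor Il17ra read -0.50 and -1.32 in LFD and -0.83 and -0.81 in HFD (log2 change 0.09, 95% confidence interval -0.71 to 0.89). Its partner Il17rc had a change of 0.01 and the IL-25 receptor Il17rb one of 0.35 (adjusted p = 0.137). Of the ligands, Il17d read 2.03 and 2.08 in LFD and 2.03 and 2.19 in HFD, a change of 0.05 (-0.23 to 0.34). Il17f overlapped between diets, and its HFD arrays were 2.09 apart, the only member whose HFD arrays differed by more than 1, against 2.28% of all genes. The median change of the 7 tested genes was 0.01, and it was below 0 with normexp, quantile and median scaling (-0.04, -0.04 and -0.08).

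Il34, a ligand of the macrophage growth factor receptor Csf1r, read 2.73 and 2.58 in LFD and 1.93 and 2.26 in HFD. Both HFD arrays were lower, but the change of -0.55 did not pass (adjusted p = 0.0917; 0.0397 with normexp and 0.0389 with the trend and robust options). Il16, a chemoattractant for CD4 T cells, was lower on both HFD arrays at its dimmer probe without passing (change -0.54; limma, adjusted p = 0.133). Its brighter probe overlapped between diets, at 0.68 and 0.38 in LFD and 0.19 and 0.58 in HFD. Il4i1 also overlapped, with a change of 0.64 (95% confidence interval -1.07 to 2.35).

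The 29 genes that were not tested were mostly ligands: 21 of the 39 ligands or antagonists and 8 of the 41 receptors or binding proteins. They were Il1a, Il1f5, Il1f6, Il1f9, Il1f10, Il3, Il5, Il6, Il9, Il12b, Il17a, Il17b, Il17c, Il19, Il20, Il21, Il22, Il23a, Il24, Il25 and Il31, and the receptors Il1rapl1, Il1rapl2, Il5ra, Il9r, Il12rb2, Il20ra, Il22ra2 and Il23r. No probe of 22 members was well above background on any array. A transcript below that limit may still be present, so no direction is given for these genes.

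Probes of a gene could disagree. More than 1 probe was tested for 13 genes, and for 3 of them, Il17rd, Il17rc and Il13ra1, the probes had changes of opposite sign. For Il7r the dimmer probe passed and the brighter did not, whereas for Il20rb it was the brighter. The Il7r probes lie on the minus strand at chr15:9435976-9436035 (brighter) and chr15:9440943-9441002 (dimmer), and are shown because the call depends on which is read.
Il7r, brighter probe: atcaatcaactatgtttggatccagggaat
Il7r, dimmer probe: cccacagagaaaactacgaccaaaagcaat

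**Figure D4:**
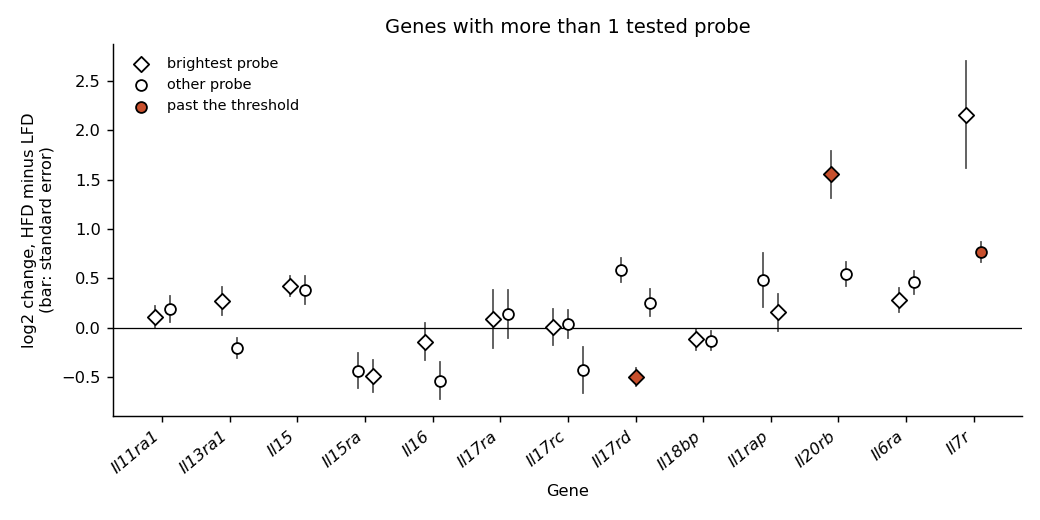
Log2 change, HFD minus LFD (vertical axis), of each tested probe of the 13 interleukin genes (horizontal axis) with more than 1 tested probe; bars are standard errors from limma, diamonds mark the brightest probe and filled symbols passed the threshold. For Il17rd the brightest probe lies below 0 and the others above it, and for Il7r the probe with the larger change has the longer error bar.

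Genes that process, transmit or answer interleukin signals but bear other names were followed in 4 lists. Of 48 tested genes 11 were higher and 2 lower in HFD, with a median change of 0.31, against the 5.75% and 5.61% of all genes given above. These counts fell with 1 array fewer, whichever array was left out, as did the counts over all genes tested. In the list of IL-1 processing and signalling, 2 of 15 were higher: Casp1, the protease that matures IL-1 beta and IL-18 (2.08-fold, adjusted p = 0.0259), and the kinase Irak2 (1.62-fold, adjusted p = 0.0486). The adaptor Myd88 and the inflammasome sensor Nlrp3 had changes of 0.33 and 0.35 and did not pass. Pycard had the largest change of this list, 1.16, and did not pass either (limma, adjusted p = 0.0509).

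None of the 11 JAK kinases and STAT factors passed, and 3 had an unadjusted p under 0.05 in limma, against 6188 of all 17736 genes tested. Stat6, which carries IL-4 and IL-13 signals, had a change of 0.54, and Stat3, which carries those of IL-6 and IL-10, one of 0.40. Stat5a, the third with an unadjusted p under 0.05, had a change of -0.32. Among partner ligands and receptors 5 of 13 were higher and 1 lower. Crlf2, the receptor for TSLP, rose 1.89-fold (3.73 and 3.65 in LFD, 4.60 and 4.62 in HFD; adjusted p = 0.0207). Csf2rb2 and Csf2rb encode beta chains that pair with Il3ra, and Csf2rb also pairs with the IL-5 receptor. They rose 2.07-fold and 1.75-fold (limma, adjusted p = 0.0397 and 0.0478). The oncostatin M receptor Osmr rose 1.63-fold (adjusted p = 0.0410), while Ctf1, the gp130 cytokine cardiotrophin, fell (log2 change -1.01, adjusted p = 0.0306).

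Target genes of IL-4 and IL-13 went both ways, with 4 of 9 tested genes higher and 1 lower. The chemokine Ccl17 rose 3.34-fold (-3.74 and -3.64 in LFD, -1.97 and -1.93 in HFD; adjusted p = 0.0137). Chil3, a chitinase-like protein of macrophages, rose 3.08-fold (adjusted p = 0.0400), the eosinophil chemokine Ccl11 2.00-fold (adjusted p = 0.0347) and the lectin Clec10a 1.45-fold (adjusted p = 0.0416). The eosinophil chemokine Ccl24 fell (log2 change -0.70, adjusted p = 0.0326). Retnla had a change of -0.50 and Arg1 one of 1.26, and neither passed.

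The LFD arrays stood apart from each other in some members. For 7 of the 52 members, Il4i1, Il7r, Il21r, Il1r2, Il12rb1, Il1b and Il2rg, the LFD arrays were more than 1 log2 unit apart, and in all 7 replicate 1 was the higher; over all genes tested 2.49% were that far apart and 1.47% in that direction. The widest gap was that of Il4i1, at -0.24 on LFD replicate 1 and -2.03 on LFD replicate 2. Of 12 tested T, NK and B cell markers, 11 were higher on LFD replicate 1, 8 of them by more than 1, while Cd3e, Klrb1c, Gzma and Cd79a differed little and Cd79a ran the other way (-4.09 and -4.03 in LFD). Among the 8, Ms4a1, which encodes the B cell protein CD20, read 1.22 and -1.98 in LFD and -2.57 and -1.12 in HFD, and Cd3d, a chain of the T cell receptor complex, 0.47 and -2.17, then -1.57 and -0.59.

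Summed over 4 tested B cell markers, signals relative to the array's 75th percentile were 5.85 and 1.01 in LFD and 1.26 and 1.89 in HFD, and over 8 T and NK cell markers 4.28 and 1.40, then 1.81 and 2.94; Cd4, Ncr1 and Pax5 were not tested. Of these 12 marker genes, Klrb1c was higher in HFD and none was lower. The part of lymphocytes in the spread of these members was not tested.

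**Figure D5:**
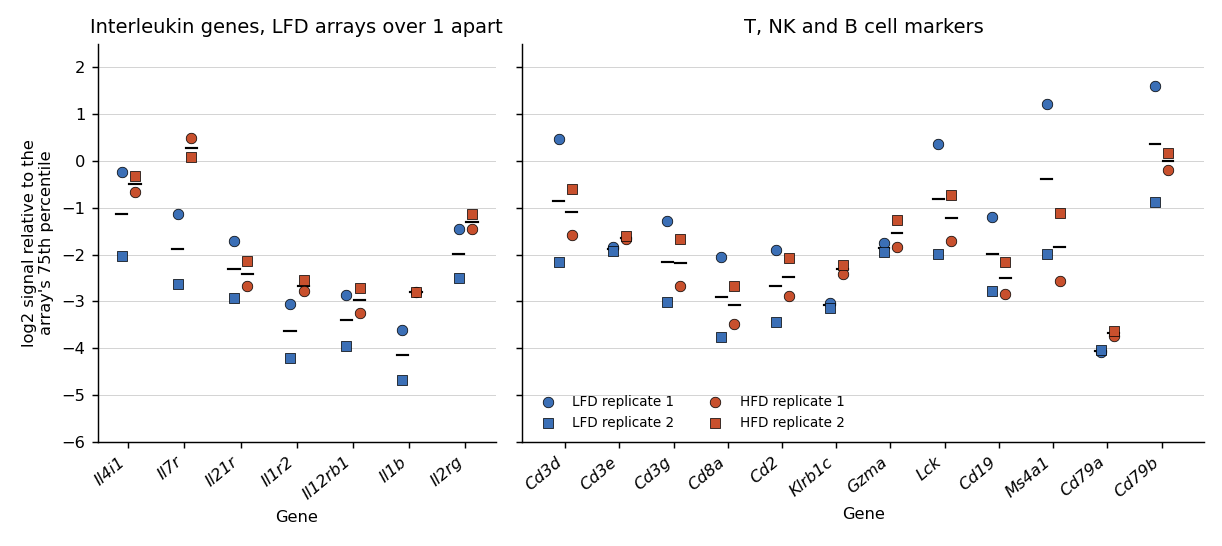
Normalised log2 signal (0 is the 75th percentile of that array; vertical axis) on each array for the 7 interleukin genes whose LFD arrays lie more than 1 apart (left) and for the tested T, NK and B cell markers (right); circles are replicate 1, squares replicate 2 and short lines diet means. In all 7 genes LFD replicate 1 lies above LFD replicate 2, as it does for Ms4a1 (1.22 against -1.98) and Cd3d (0.47 against -2.17).

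The start regions of the genes that changed were read from RefSeq's mouse build GRCm38.p6, which is not the build of the probes. Of the 12 called genes 10 were matched by symbol, with 15 windows from 250 bases before to 50 after a start; Il10ra and Il10rb were the others. The AP-1 motif TGANTCA, which reads the same on both strands, occurred in 2 of these windows, 1 of Il13ra2 and 1 of 3 of Il1rn, the genes with the largest rises, and in 7.81% of all 32851 windows. The STAT motif TTCNNNNGAA, also its own reverse complement, occurred in 5 windows of 3 genes, Il1rn, Il12a and Il33, and in 6.95% of all. The 2 Il1rn windows with this motif overlap and hold the same site, so 1 match is counted in both. The related TTCNNNGAA occurred in none, against 8.30%. The NF-kappaB motif, searched on both strands, occurred in 1 window, that of Il2ra, against 8.46%. A match is a description of the sequence and not a binding site. The 250 bases before the start are shown for the windows with the AP-1 motif, in capitals, for Il13ra2 (chrX:147429193-147429442, minus strand, motif from -193) and Il1rn (chr2:24336610-24336859, plus strand, motif from -141).
Il13ra2: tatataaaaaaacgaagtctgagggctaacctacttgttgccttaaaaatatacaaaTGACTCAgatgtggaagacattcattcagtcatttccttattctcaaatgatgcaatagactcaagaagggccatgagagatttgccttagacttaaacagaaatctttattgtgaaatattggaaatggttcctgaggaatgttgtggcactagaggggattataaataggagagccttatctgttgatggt
Il1rn: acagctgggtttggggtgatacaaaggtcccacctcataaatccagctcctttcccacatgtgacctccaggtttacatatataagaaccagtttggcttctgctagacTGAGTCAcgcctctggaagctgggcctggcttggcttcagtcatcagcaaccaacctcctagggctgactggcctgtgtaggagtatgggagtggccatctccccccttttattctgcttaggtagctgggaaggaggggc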

How the data were processed

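Arrays were extracted with Feature Extraction (11.5.1.1 per the submitters' processing notes, 11.0.1.1 per the file headers), which subtracted background and detrended each array. The authors deposited these linear spot intensities, and a value table of the ratio between a spot's processed signal and its array's 75th percentile. Here processed signals were divided by that percentile and put on the log2 scale for 41174 probes, after averaging spots of a probe and dropping outlier flags (60 to 115 spots per array). The 26054 probes that Feature Extraction put well above background on both LFD or both HFD arrays were tested with limma 3.58.1 (lmFit, eBayes, two-sided, R 4.3.3), residual df 2, prior df 2.24. A gene was its tested probe of highest mean. Symbols were updated for 27668 probes through RefSeq accessions. Values on each array are given for called members and a fixed panel. All arrays shared 1 slide and 1 scan time. A bound compares the brighter diet's mean with a dim-diet mean in which each array contributes its dim probe or its lowest signal well above background, whichever is higher. Such a bound does not include the spread between arrays. The fit was tested on simulated data. Members and lists were chosen with earlier results of these data known. Signal, not read depth, limits precision, as does the number of arrays. One gene counted in a list is not reported here by name.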

Additional observations from a re-analysis of the deposited data

How the results depend on the processing

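With no filter on dim probes no interleukin gene and no pathway gene passed in limma in either direction (0 each), nor did any other gene. In that fit 28 of 81 members had an unadjusted p under 0.05 in limma. The matching count over all genes is not given here, nor for the block below. In the main fit 25 of 52 members and 6188 of all 17736 genes tested had such a p in limma. Its median change was 0.44 over members and 0.20 over all genes. With the replicate number as a block, 2 interleukin genes were higher and 0 lower, and 1 pathway gene was higher and 0 lower, with 23 members at an unadjusted p under 0.05; the numbers did not pair the arrays (r = -0.0046 between the replicate differences of the diets), so the block is no test of pairing. With at least 2-fold required, 4 members were higher, and 5 pathway genes were higher and 1 lower. The trend and robust options gave 5 members lower and 19 pathway genes higher, and median scaling 5 pathway genes higher. The median over members was 0.24 with quantile normalisation, 0.25 with median scaling and 0.28 over genes well above background on all 4 arrays. Leaving out 1 array gave 2 to 5 members higher, 0 to 1 lower, 0 to 5 pathway genes higher, 0 to 1 lower, and a median of 0.18 to 0.40; the diet with 1 array left was assumed to vary like the other.

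Of the 52 tested members, 14 turned sign in some alternative, 1 of them called. With normexp, Il17d was -0.044 and Il18bp 0.0048; with median scaling, Il17d was -0.039, Il17ra -0.0022 and Il17rc -0.082; with quantile normalisation, Il17rc was -0.040 and Il1rap -0.020; with the mean of its probes, Il17rc was -0.13. With 1 array left out, 12 uncalled members crossed 0: Il12rb1 (-0.12 to 0.97), Il16 (-0.33 to 0.051), Il17d (-0.023 to 0.13), Il17f (-2.01 to 0.074), Il17ra (-0.32 to 0.50), Il17rc (-0.16 to 0.18), Il18r1 (-0.16 to 0.42), Il1f8 (-0.14 to 0.84), Il1rap (-0.074 to 0.39), Il21r (-0.70 to 0.51), Il22ra1 (-0.17 to 0.56) and Il4i1 (-0.25 to 1.53). Il17rd, called lower, turned to 0.11 with the mean of its probes. Il13ra2 and Il1rn kept their call in 12 of 13 alternatives each, all with the filter that they passed through their HFD arrays alone. Il17re kept its call in 10 of 14, and the other 9 called genes kept theirs in 4 to 9 of 14. All 12 kept it with the deposited value table and with outlier spots kept. The causes were not tested.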
